A study of Mus musculus with 2 samples.

Results

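The 30 genes described here are the enzymes of glycolysis, the proteins that set its rate and decide what becomes of pyruvate, and a group of genes switched on when oxygen is short. They were chosen by symbol from the 32285 genes counted in the cochlea of noise-exposed mice, and 21 belong to glycolysis and lactate or pyruvate handling while 9 belong to the hypoxia response. Drug-NIHL denotes cochleae of wild-type C57BL/6J mice, 4 to 6 weeks old, that received the drug at 90 mg/ml and were then exposed to an octave band of 8 to 16 kHz at 105 dB for 2 h. NIHL denotes the contralateral, untreated ears of the same animals, which took the same noise (noise-induced hearing loss). The labels do not spell out the drug, whose abbreviation in the title of the study is VPA. Sensory epithelium was dissociated with trypsin 2 days after the noise, and each group, labelled n = 5, was captured as 1 droplet library of 3′ single-cell RNA. With 1 pooled library a group, no difference between the groups could be tested, and every interval below covers counting error only.

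Glycolysis splits glucose into pyruvate in the cytosol, and several of its steps can be carried out by alternative enzymes encoded by different genes. Lactate dehydrogenase is built from A subunits (Ldha), which favour turning pyruvate into lactate, and B subunits (Ldhb), which are typical of tissues that take up lactate. Aldolase A (Aldoa) is the general form, and aldolase C (Aldoc) is the form of brain, where astrocytes are rich in it. When oxygen falls, the factor encoded by Hif1a is no longer degraded and activates many of the glycolytic genes together with Vegfa, Adm, Bnip3 and others. In the cochlea, the stria vascularis is known for a high rate of energy use, because it pumps potassium into the endolymph.

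After filtering, 18557 Drug-NIHL cells and 16048 NIHL cells remained, with a median of 1159 and 1107 unique molecules (UMIs) a cell, and 111 cell barcodes occurred in both libraries. Cells were grouped without using the 30 genes, which gave 23 units with at least 100 cells in each library: 16 named by fixed markers, written as X-like, and 7 unnamed clusters. The label calls the tissue sensory epithelium, yet hair cell-like cells made up 0.878% of Drug-NIHL cells and 0.629% of NIHL cells. No unit was named for the supporting cells of the organ of Corti in this clustering. A coarser clustering (resolution 0.5) gave that name to 99 Drug-NIHL and 71 NIHL cells, and a finer one (resolution 2) to 101 Drug-NIHL and 72 NIHL cells. Schwann or satellite glia-like cells (Schwann-like below) made up 21.6% of Drug-NIHL cells and 41.2% of NIHL cells. Astrocyte-like cells numbered 204 in Drug-NIHL and 25 in NIHL. Microglia or macrophage-like cells, 1 class by the markers used, are written macrophage-like below. Levels are in CPM, the UMIs of a gene as a share of all UMIs of a unit and library, scaled to the usual fixed total. Each molecule is counted once at its 3′ end whatever its length, although capture can still differ between genes. In a sum of cells, fewer cells that express a gene and less RNA in each of them cannot be told apart.

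Promoters of the members that carry the isoform and drug comparisons are shown first, because the hypoxia factor binds DNA at short cores within such regions. The stretches are the 250 bases before the most upstream RefSeq start of each gene (GRCm38.p6), with the cores ACGTG and GCGTG in capitals on either strand. Where CACGTG occurs, both strands hold the core and the 6 letters are 1 site.
Ldha: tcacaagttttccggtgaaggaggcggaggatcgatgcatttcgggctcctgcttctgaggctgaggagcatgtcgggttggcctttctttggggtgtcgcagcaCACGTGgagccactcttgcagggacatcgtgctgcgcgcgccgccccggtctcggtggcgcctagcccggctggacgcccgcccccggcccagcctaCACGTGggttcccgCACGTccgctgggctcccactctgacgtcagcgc
Ldhb: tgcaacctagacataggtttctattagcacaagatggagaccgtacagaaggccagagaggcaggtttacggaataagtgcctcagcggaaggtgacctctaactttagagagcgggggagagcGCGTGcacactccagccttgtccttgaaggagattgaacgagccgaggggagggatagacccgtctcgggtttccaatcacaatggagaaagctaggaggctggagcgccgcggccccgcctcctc
Aldoa: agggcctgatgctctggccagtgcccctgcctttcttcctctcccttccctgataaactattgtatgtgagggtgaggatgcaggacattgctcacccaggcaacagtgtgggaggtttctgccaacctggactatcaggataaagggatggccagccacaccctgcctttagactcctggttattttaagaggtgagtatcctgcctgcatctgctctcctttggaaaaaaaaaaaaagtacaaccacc
Aldoc: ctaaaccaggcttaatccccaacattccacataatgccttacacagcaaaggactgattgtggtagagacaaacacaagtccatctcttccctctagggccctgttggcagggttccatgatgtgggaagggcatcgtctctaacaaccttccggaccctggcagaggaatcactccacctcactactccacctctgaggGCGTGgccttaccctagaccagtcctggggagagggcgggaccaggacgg
Pgk1: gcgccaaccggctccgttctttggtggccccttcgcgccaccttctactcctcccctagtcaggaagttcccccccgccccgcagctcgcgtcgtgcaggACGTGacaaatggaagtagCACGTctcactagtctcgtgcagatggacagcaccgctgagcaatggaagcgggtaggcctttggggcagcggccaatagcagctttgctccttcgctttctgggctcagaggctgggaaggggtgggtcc
Adm: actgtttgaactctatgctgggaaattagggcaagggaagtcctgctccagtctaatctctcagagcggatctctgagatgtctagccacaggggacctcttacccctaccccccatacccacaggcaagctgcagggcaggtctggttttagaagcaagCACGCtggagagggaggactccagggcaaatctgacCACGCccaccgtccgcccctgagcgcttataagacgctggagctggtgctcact
Ldha lies at chr7:46845554-46845803 on the plus strand, Ldhb at chr6:142507958-142508207 on the minus strand, Aldoa at chr7:126800448-126800697 on the minus strand, Aldoc at chr11:78322823-78323072 on the plus strand, Pgk1 at chrX:106186850-106187099 on the plus strand and Adm at chr7:110627407-110627656 on the plus strand. The Ldha stretch held 3 sites, against 1 for Ldhb, 1 for Aldoc, 2 each for Pgk1 and Adm and 0 for Aldoa. These counts are for the stretches shown only. RefSeq lists 3 starts for Aldoa and 2 each for Ldha and Aldoc, and sites before the other starts are not given. Of the 28 members with a promoter in the RefSeq table, 12 held ACGTG and 12 held GCGTG, and 21 held either. Among all 32851 promoters of the same length, 16.6% held ACGTG, 28.2% held GCGTG and 38.6% held either. These take in every listed start, more than 1 for some genes, while each member is given by its most upstream start alone. The 2 sets are therefore not chosen alike, and their difference was not tested. A match is a string of letters and was not measured as a binding site here. Ndrg1 and Angptl4 were not matched.

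Summed glycolytic transcripts differed widely between units. The 21 glycolytic members together took 10383 CPM in Drug-NIHL and 10655 CPM in NIHL in cluster 21, which was led by Resp18, Chgb and Snap25. Marginal cell-like cells of the stria, the potassium-secreting epithelium, followed with 8302 CPM in Drug-NIHL and 8891 CPM in NIHL. Cluster 25 (led by Them5, Igfbp6 and Lama1) came next, with 6884 CPM in Drug-NIHL and 7294 CPM in NIHL. Intermediate cell-like cells, the melanocyte-derived layer of the stria, held 6023 and 6478 CPM in Drug-NIHL and NIHL. At the low end stood erythroid-like cells, with 1324 CPM in Drug-NIHL and 1278 CPM in NIHL, and endothelial-like cells, with 1827 and 1804 CPM in Drug-NIHL and NIHL. The order at the top and bottom was the same in both libraries, and the libraries differed far less than the units did.

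**Figure D1:**
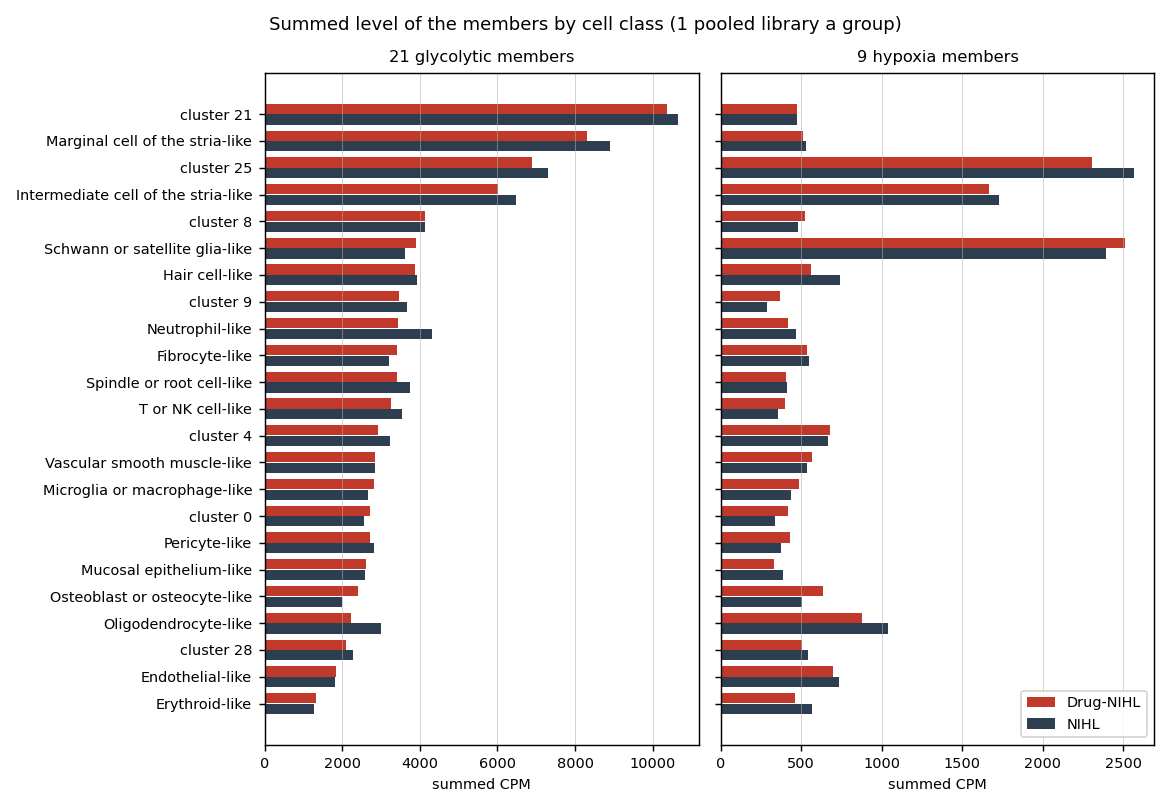
Summed CPM (x axis) of the 21 glycolytic members (left) and the 9 hypoxia members (right) in 23 cell units (y axis), Drug-NIHL in red above NIHL in dark blue, 1 pooled library a group. Cluster 21 and marginal cell-like cells lead the glycolytic sum in both libraries, followed by cluster 25, while Schwann-like cells and cluster 25 lead the hypoxia sum, most of which is Ndrg1.

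At the first step, hexokinase 1 (Hk1), the general form, was most abundant in cluster 21, with 160 CPM in Drug-NIHL and 150 CPM in NIHL. Hexokinase 2 (Hk2), the inducible form, was highest in macrophage-like cells of Drug-NIHL, with 144 CPM, against 108 CPM in NIHL, where cluster 8 (led by Otol1, Tecta and Otog) stood higher at 147 CPM. Hk2 made up 84.8% of the Hk1 and Hk2 UMIs of macrophage-like cells in Drug-NIHL and 79.8% in NIHL. In cluster 21 its share was 0.670% in Drug-NIHL and 1.56% in NIHL. In fibrocyte-like cells it was 41.6% in Drug-NIHL (36.9 to 46.4%) and 51.0% in NIHL (46.0 to 56.0%). Macrophage-like cells and cluster 21 held the highest and lowest Hk2 share in both libraries, among the 8 units of each with at least 100 UMIs of the pair. Gpi1, which converts glucose 6-phosphate to fructose 6-phosphate, was highest in neutrophil-like cells, at 321 CPM in Drug-NIHL and 439 CPM in NIHL.

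Phosphofructokinase, the committing step, also changed its make-up between units. The liver-type subunit Pfkl led in marginal cell-like cells, with 168 CPM in Drug-NIHL and 242 CPM in NIHL, and made up 57.0% of the phosphofructokinase UMIs of intermediate cell-like cells in Drug-NIHL and 59.3% in NIHL. The muscle-type subunit Pfkm took 61.0% in Drug-NIHL and 59.0% in NIHL in cluster 25. In cluster 21 Pfkm took 50.9% in Drug-NIHL and 46.0% in NIHL, platelet-type Pfkp took 43.3% in Drug-NIHL and 47.1% in NIHL, and Pfkl took 5.81% and 6.89% in Drug-NIHL and NIHL. Pfkp had its highest share in Drug-NIHL in vascular smooth muscle-like cells, at 67.8%, against 58.1% in NIHL on 74 UMIs of the 3 genes. Pfkfb3, which makes the main activator of phosphofructokinase, peaked in marginal cell-like cells at 239 CPM in Drug-NIHL and 185 CPM in NIHL. Its relative Pfkfb4 stayed low: the highest unit was macrophage-like cells in Drug-NIHL, at 24.3 CPM, and neutrophil-like cells in NIHL, at 79.7 CPM. Pfkl and Pfkfb3 therefore both stood highest in marginal cell-like cells. For Pfkl in Drug-NIHL, the interval there overlapped that of intermediate cell-like cells, at 120 CPM. The other subunits were also high in marginal cell-like cells. Pfkp came after cluster 21 alone, at 136 CPM in Drug-NIHL and 138 CPM in NIHL. Pfkm came after clusters 21 and 25, at 72.6 CPM in Drug-NIHL and 73.8 CPM in NIHL.

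In the stretch from aldolase to pyruvate, Aldoa was read from 1 row of the matrices, since a second row of that symbol held 0 UMIs. Aldoa ran from 1588 CPM in Drug-NIHL and 1619 CPM in NIHL in cluster 21 down to 192 and 167 CPM in Drug-NIHL and NIHL in erythroid-like cells. Tpi1, triose phosphate isomerase, was highest in intermediate cell-like cells, at 616 CPM in Drug-NIHL and 689 CPM in NIHL. Gapdh, the dehydrogenase that follows, was highest in cluster 21, at 2216 CPM in Drug-NIHL and 2332 CPM in NIHL. Pgk1, which makes the first ATP of the pathway, and Pgam1, the mutase after it, both peaked in marginal cell-like cells. Pgk1 had 582 CPM there in Drug-NIHL and 614 CPM in NIHL, and Pgam1 had 737 CPM in Drug-NIHL and 720 CPM in NIHL. Pkm, pyruvate kinase, was highest in cluster 21 with 1186 CPM in Drug-NIHL and 1256 CPM in NIHL.

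Enolase split sharply by unit. Neuronal enolase (Eno2) took 76.3% of Eno1 and Eno2 UMIs in cluster 21 in Drug-NIHL and 74.5% in NIHL, and under 50% in every other unit with at least 100 such UMIs. In CPM, Eno2 stood at 448 in Drug-NIHL and 512 in NIHL in cluster 21, and no other unit passed 26.9 CPM in Drug-NIHL or 39.8 CPM in NIHL. Eno1 has a near-identical copy, Eno1b, with 282 UMIs in the Drug-NIHL matrix and 261 in the NIHL matrix, so reads of Eno1 (2502 and 2619 UMIs in Drug-NIHL and NIHL) may have been split between them.

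Lactate dehydrogenase also differed in its make-up between units. Ldhb made up 98.5% of Ldha and Ldhb UMIs in cluster 25 in Drug-NIHL and 97.7% in NIHL, and 98.5% and 99.2% in Drug-NIHL and NIHL in cluster 21. Schwann-like cells, the largest class, stood at 93.3% in Drug-NIHL (interval 92.6 to 94.0%) and 93.0% in NIHL (92.4 to 93.5%). At the other end, the lowest share in Drug-NIHL was 27.3% in mucosal epithelium-like cells, and the lowest in NIHL was 27.8% in T or NK cell-like cells. Ldhb was the larger partner in 17 of 23 units in Drug-NIHL and in 16 of 22 in NIHL, where neutrophil-like cells held fewer than 100 UMIs of the pair. The contrast came from both genes. Ldhb ran from 3153 CPM in Drug-NIHL and 3310 CPM in NIHL in cluster 25 to 147 CPM in Drug-NIHL and 83.7 CPM in NIHL in endothelial-like cells. Ldha was highest in mucosal epithelium-like cells in Drug-NIHL, at 401 CPM, and in T or NK cell-like cells in NIHL, at 376 CPM, and lowest in oligodendrocyte-like cells of Drug-NIHL, at 19.8 CPM, and NIHL, at 16.7 CPM.

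**Figure D2:**
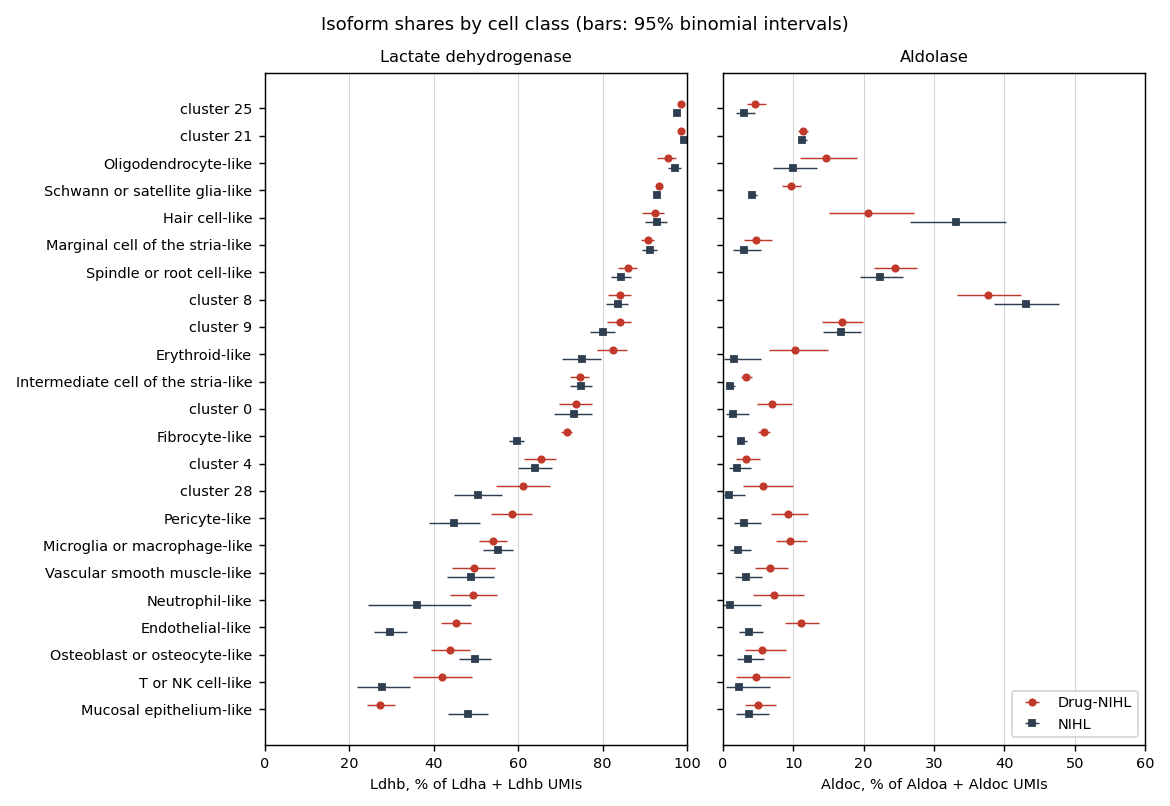
Share of Ldhb among Ldha and Ldhb UMIs (left, x axis in percent) and of Aldoc among Aldoa and Aldoc UMIs (right, x axis in percent) in 23 units (y axis), Drug-NIHL as red circles above NIHL as dark squares, with exact binomial 95% intervals. The Ldhb share spans 27.3 to 98.5% in Drug-NIHL, and the Aldoc share stays below 50% in all 23 units.

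Aldolase was more uniform over the compared units. Aldoa was the larger partner in all 23 units of both libraries, and Aldoc reached its highest share in cluster 8, with 37.7% in Drug-NIHL and 43.04% in NIHL. Next came spindle or root cell-like cells, with 24.4% in Drug-NIHL and 22.4% in NIHL, and hair cell-like cells, with 20.7% in Drug-NIHL and 33.2% in NIHL. The median share over the 23 units was 7.33% in Drug-NIHL and 3.06% in NIHL. Outside these units, in the astrocyte-like cells that were too few in NIHL to be compared, Aldoc stood at 2541 CPM in Drug-NIHL and 3505 CPM in NIHL. Aldoc was the larger partner in them, with 85.2% of the pair in Drug-NIHL (610 of 716 UMIs) and 82.6% in NIHL (128 of 155). Those cells held 19.9% of the Aldoc UMIs of all Drug-NIHL cells and 6.01% of those of NIHL cells.

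Slc16a3, a lactate exporter typical of glycolytic cells, was highest in neutrophil-like cells, with 144 CPM in Drug-NIHL and 547 CPM in NIHL. In the other 22 units it did not pass 25.3 CPM in Drug-NIHL or 18.7 CPM in NIHL, both in macrophage-like cells. Neutrophil-like cells held 80 of the 184 Slc16a3 UMIs of Drug-NIHL cells and 96 of the 160 of NIHL cells, and macrophage-like cells held 49 and 31 in Drug-NIHL and NIHL. Pdk1, a kinase that limits the oxidation of pyruvate in mitochondria, was highest in cluster 28 (led by Ccl11, Aard and Osr2). It stood there at 66.6 CPM in Drug-NIHL and 69.4 CPM in NIHL. Fibrocyte-like cells had 56.8 CPM of Pdk1 in Drug-NIHL and 36.6 CPM in NIHL.

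Among the hypoxia members, Hif1a itself was highest in intermediate cell-like cells, at 934 CPM in Drug-NIHL and 927 CPM in NIHL, with the next unit, cluster 8, at 312 CPM in Drug-NIHL. In NIHL the next were hair cell-like cells, at 389 CPM. Adm, the vessel-dilating peptide adrenomedullin, was highest in the same intermediate cell-like cells, at 367 CPM in Drug-NIHL and 399 CPM in NIHL. Ndrg1, a gene of myelinating glia as well as of hypoxia, stood at 2304 CPM in Drug-NIHL and 2189 CPM in NIHL in Schwann-like cells, next to 1980 and 2261 CPM in Drug-NIHL and NIHL in cluster 25. Within the Schwann-like cells it was not uniform: cluster 1, led by Scn7a and Fabp7, held 581 CPM in Drug-NIHL and 567 CPM in NIHL, against 2934 and 2908 CPM in Drug-NIHL and NIHL in cluster 11. Bnip3, a mitophagy receptor, was more even, with 132 CPM in Drug-NIHL and 134 CPM in NIHL at its highest in cluster 21. Vegfa, the angiogenic factor, was highest in mucosal epithelium-like cells, with 81.5 CPM in Drug-NIHL and 135 CPM in NIHL.

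The remaining hypoxia members were scarce. Egln3, a prolyl hydroxylase that marks the hypoxia factor for degradation, peaked in cluster 4 (led by Slc47a1 and Penk) at 58.6 CPM in Drug-NIHL and 39.3 CPM in NIHL. Ankrd37, an ankyrin-repeat gene induced by hypoxia, peaked in hair cell-like cells at 60.9 CPM in Drug-NIHL, and in NIHL stood at 33.7 CPM in them and at 35.2 CPM in cluster 4. Angptl4, an inhibitor of lipoprotein lipase, was highest in osteoblast-like cells of Drug-NIHL, at 76.9 CPM, against 28.1 CPM in NIHL, where cluster 25 stood at 62.8 CPM. Car9, a carbonic anhydrase often used as a hypoxia marker, did not pass 2.58 CPM in any unit of Drug-NIHL or 3.63 CPM in any unit of NIHL, and was the 1 member of 30 with fewer than 100 UMIs in all cells together.

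For Drug-NIHL against NIHL, a member was counted when at least 100 UMIs lay in the summed counts, and was called lower when its CPM in Drug-NIHL was at most 0.8 of that in NIHL, and higher when its CPM in NIHL was at most 0.8 of that in Drug-NIHL. Over all cells, 3 of 29 members were higher in Drug-NIHL (7.58% of all 14463 genes were) and 2 were lower (6.52% of all genes). Pfkfb3 had 24.5 CPM in Drug-NIHL and 16.7 CPM in NIHL, a ratio of 1.47 (1.31 to 1.64). Aldoc had 92.0 CPM in Drug-NIHL and 66.4 CPM in NIHL, a ratio of 1.39. Adm had 29.5 CPM in Drug-NIHL and 23.1 CPM in NIHL, a ratio of 1.28. On the lower side, Eno2 had 69.9 CPM in Drug-NIHL and 87.8 CPM in NIHL, and Ndrg1 had 505 CPM in Drug-NIHL and 646 CPM in NIHL, a ratio of 0.782 (0.766 to 0.798). The libraries differ in cell make-up, and Ndrg1 within Schwann-like cells, its main source, had 2304 CPM in Drug-NIHL and 2189 CPM in NIHL. The comparisons below are therefore within units.

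**Figure D3:**
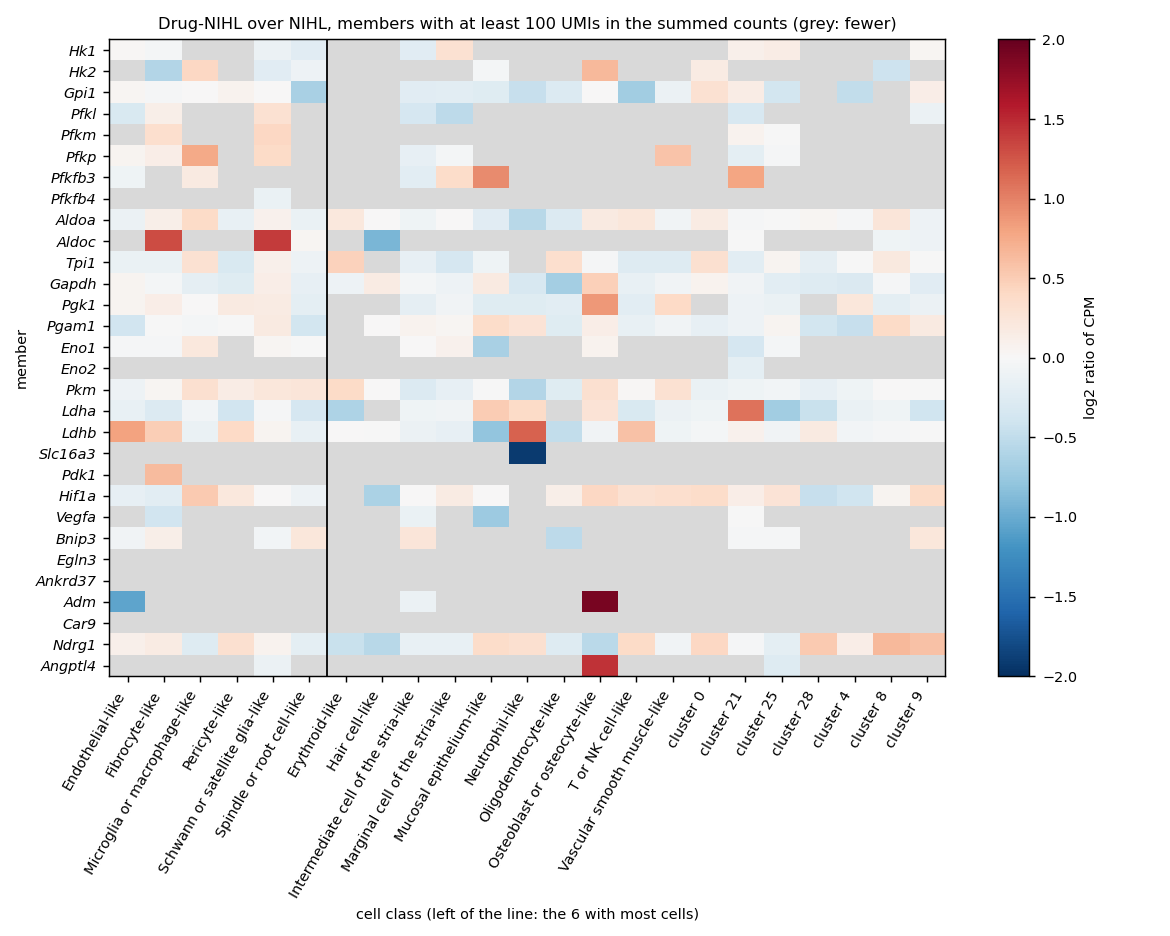
Log2 ratio of CPM, Drug-NIHL over NIHL (colour scale), for the 30 members (y axis) in 23 units (x axis), the 6 with most cells left of the line; red is higher in Drug-NIHL, blue lower, and grey marks fewer than 100 UMIs. Most squares are pale, and the strongest are Adm and Angptl4 in osteoblast-like cells, Slc16a3 in neutrophil-like cells and Aldoc in fibrocyte-like and Schwann-like cells.

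In Schwann-like cells (4008 in Drug-NIHL and 6619 in NIHL), the glycolytic members called were Aldoc, Pfkm and Pfkp. Of 21 members counted, 3 were higher in Drug-NIHL (5.69% of genes) and 0 lower (10.6% of genes). The median log2 ratio was 0.07 over these members and -0.05 over all genes. Aldoc had 64.6 CPM in Drug-NIHL and 24.5 CPM in NIHL, a ratio of 2.64 (2.12 to 3.29). Pfkm had 36.6 CPM in Drug-NIHL and 27.6 CPM in NIHL, and Pfkp 36.9 CPM in Drug-NIHL and 28.5 CPM in NIHL, with intervals that reached down to 1.03 and 1.01. The split within the class was uneven, since Pfkp stood at 16.2 CPM in Drug-NIHL and 36.5 CPM in NIHL in cluster 11, and at 47.6 CPM in Drug-NIHL and 24.5 CPM in NIHL in cluster 2. With cells of at least 1000 genes alone, 68 Drug-NIHL and 240 NIHL cells remained, and Aldoc then had 49.7 CPM in Drug-NIHL and 59.0 CPM in NIHL, on 7 UMIs in Drug-NIHL and 32 in NIHL, too few to count by the minimum used here.

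In endothelial-like cells (1684 in Drug-NIHL and 1015 in NIHL), the B subunit of lactate dehydrogenase was the member that stood higher. Of 18 members counted, 1 was higher (6.62% of genes) and 2 were lower (7.54% of genes). Ldhb had 147 CPM in Drug-NIHL and 83.7 CPM in NIHL, a ratio of 1.75 (1.45 to 2.13), and its share of the pair was 45.2% in Drug-NIHL and 29.7% in NIHL. Ldha had 178 CPM in Drug-NIHL and 198 CPM in NIHL. Adm had 18.5 CPM in Drug-NIHL and 38.5 CPM in NIHL, a ratio of 0.479 (0.324 to 0.703), on 45 UMIs in Drug-NIHL and 75 in NIHL. Pgam1 had 72.2 CPM in Drug-NIHL and 93.9 CPM in NIHL. Endothelial-like cells of Drug-NIHL were shallower, with a median of 1140 UMIs against 1512 in NIHL. With predicted doublets kept, the Ldhb ratio was 1.21 and the Ldhb share was 57.3% in Drug-NIHL and 51.7% in NIHL.

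Fibrocyte-like cells (2953 in Drug-NIHL and 1752 in NIHL), the connective cells of the lateral wall, had 4 of 21 members higher in Drug-NIHL (9.50% of genes) and 2 lower (12.0% of genes). Ldhb had 720 CPM in Drug-NIHL and 510 CPM in NIHL, a ratio of 1.41 (1.33 to 1.49). Pdk1 had 56.8 CPM in Drug-NIHL and 36.6 CPM in NIHL, a ratio of 1.55 (1.26 to 1.93). Aldoc had 34.4 CPM in Drug-NIHL and 13.9 CPM in NIHL, a ratio of 2.48. Hk2 had 37.5 CPM in Drug-NIHL and 56.5 CPM in NIHL, a ratio of 0.664 (0.540 to 0.816), and Vegfa had 43.6 CPM in Drug-NIHL and 57.1 CPM in NIHL, a ratio of 0.764. Pfkm had 41.7 CPM in Drug-NIHL and 33.0 CPM in NIHL.

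The make-up of the fibrocyte-like class moved with these values. Cluster 16 held 834 Drug-NIHL cells and 164 NIHL cells, and its Ldhb stood at 1225 CPM in Drug-NIHL and 879 CPM in NIHL, while cluster 5 stood at 237 CPM in Drug-NIHL and 218 CPM in NIHL. Clusters 17 and 23 had Ldhb ratios of 0.988 and 1.16. With the 4 clusters weighted as in NIHL, the ratio of Ldhb was 1.11 and that of Hk2 0.845, and 2 members were called in place of 6. Pdk1 was above 1.2 in each of the 4 clusters, from 1.21 in cluster 5 and cluster 16 to 1.78 in cluster 23.

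Macrophage-like cells (1041 in Drug-NIHL and 748 in NIHL) had 4 of 15 members higher in Drug-NIHL (11.2% of genes) and 0 lower (8.75% of genes), and the median log2 ratio was 0.18 over the members and -0.01 over all genes. Hif1a had 208 CPM in Drug-NIHL and 145 CPM in NIHL, a ratio of 1.44 (1.22 to 1.70). Hk2 had 144 CPM in Drug-NIHL and 108 CPM in NIHL, a ratio of 1.34 (1.10 to 1.62). Aldoa had 332 CPM in Drug-NIHL and 254 CPM in NIHL, a ratio of 1.31, and Pfkp 35.2 CPM in Drug-NIHL and 20.6 CPM in NIHL, a ratio of 1.71. The class, microglia or macrophage-like in full, holds 2 clusters. Cluster 26 was led by Ifi207, Tnip3 and Mrc1, and cluster 38 by P2ry12, Siglech and Gpr34. In cluster 26 Hif1a had 224 CPM in Drug-NIHL and 140 CPM in NIHL, and in cluster 38 it had 140 CPM in Drug-NIHL and 157 CPM in NIHL, while Hk2 was higher in Drug-NIHL in both. At a finer clustering (resolution 2), 1 member was called in place of 4 and the ratio of Hif1a was 1.16. That clustering named a separate cluster of 251 Drug-NIHL and 143 NIHL cells monocyte or dendritic cell-like. The part of this mix of cell types in the ratios was not tested.

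Pericyte-like cells (1002 in Drug-NIHL and 569 in NIHL) had 2 of 11 members higher (7.12% of genes) and 1 lower (14.4% of genes). Ldhb had 282 CPM in Drug-NIHL and 213 CPM in NIHL, Ldha had 200 CPM in Drug-NIHL and 262 CPM in NIHL, and the Ldhb share was 58.5% in Drug-NIHL and 44.8% in NIHL. Ndrg1, at 198 CPM in Drug-NIHL and 158 CPM in NIHL, had an interval from 0.963 to 1.63. Spindle or root cell-like cells (744 in Drug-NIHL and 503 in NIHL) had 0 of 16 members higher (7.78% of genes) and 3 lower (11.2% of genes). Gpi1 had 44.4 CPM there in Drug-NIHL and 69.7 CPM in NIHL, a ratio of 0.636 (0.449 to 0.897), and Pgam1 139 CPM in Drug-NIHL and 179 CPM in NIHL. Ldha, the last of the 3, had 96.8 CPM in Drug-NIHL and 122 CPM in NIHL, with an interval from 0.619 to 1.01.

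Among the 7 units where Aldoc reached 100 UMIs, its ratio of Drug-NIHL to NIHL ran from 0.528 in hair cell-like cells to 2.64 in Schwann-like cells. It was called higher in Schwann-like and fibrocyte-like cells and lower in hair cell-like cells, and the other 4 units were close to equal. In spindle or root cell-like cells Aldoc had 145 CPM in Drug-NIHL and 141 CPM in NIHL. In the other 16 units, which held 10 to 95 Aldoc UMIs in both libraries together, the CPM was higher in Drug-NIHL in all 16. Single ratios there are imprecise: erythroid-like cells had 21.9 CPM in Drug-NIHL and 2.57 CPM in NIHL, on 23 and 2 UMIs in Drug-NIHL and NIHL. Of the 7 astrocyte markers, Slc1a2, the astrocyte glutamate transporter, was higher in Drug-NIHL in all 23 units, with 70.0 CPM in Drug-NIHL and 14.7 CPM in NIHL in Schwann-like cells. The water channel Aqp4 was higher in 21, Gja1 and Mlc1 in 17 each, Slc1a3 in 14, and Gfap and Agt in 10 each. Gfap stood at 6.62 CPM in Drug-NIHL and 14.0 CPM in NIHL in Schwann-like cells. The sum of the 7 ran from 51.0 to 776 CPM in Drug-NIHL and from 24.6 to 755 CPM in NIHL, and was higher in Drug-NIHL in 17 of the 23 units. It was lower in the other 6, among them osteoblast-like cells, with 285 CPM in Drug-NIHL and 323 CPM in NIHL. The part of astrocyte RNA in the Aldoc ratios was not tested.

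**Figure D4:**
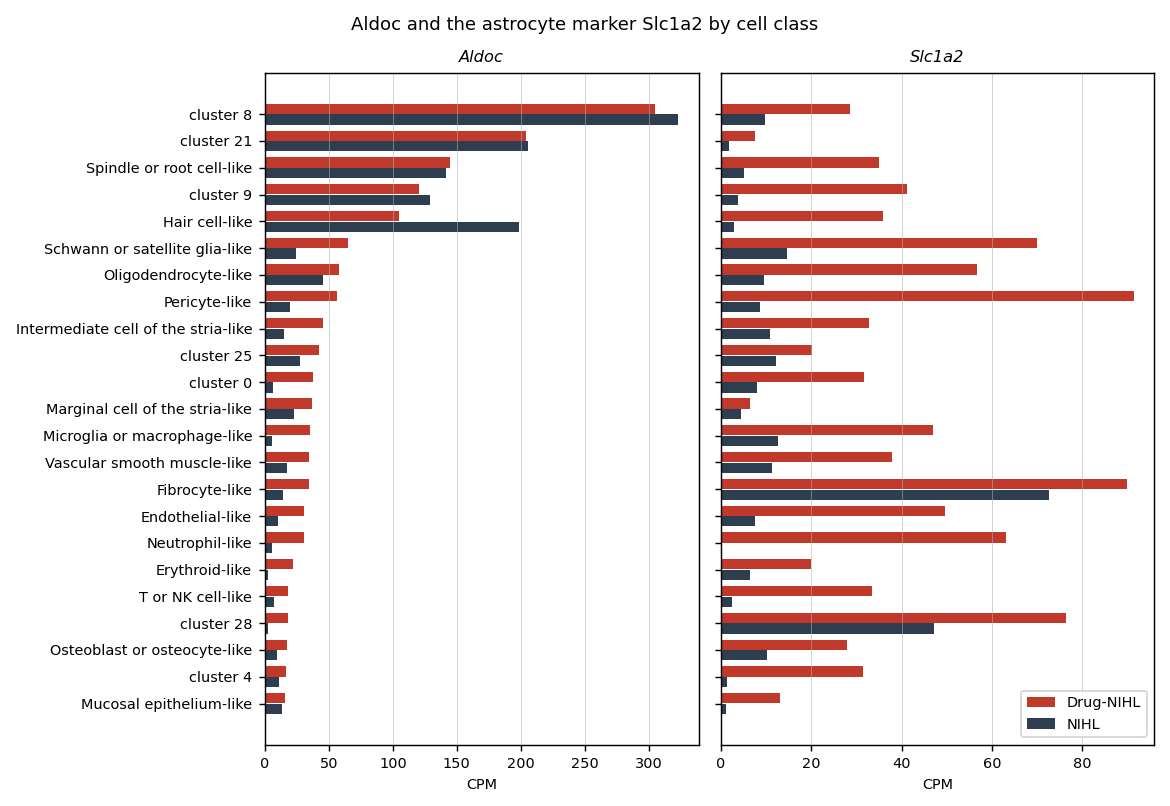
CPM (x axis) of Aldoc (left) and of the astrocyte marker Slc1a2 (right) in 23 units (y axis, ordered by Aldoc in Drug-NIHL), Drug-NIHL in red above NIHL in dark blue. Aldoc is near-equal in most of its high units, such as cluster 21 with 204 CPM in Drug-NIHL and 205 CPM in NIHL. Hair cell-like cells differ, with 105 CPM in Drug-NIHL and 199 CPM in NIHL. Slc1a2 is higher in Drug-NIHL in all 23.

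Outside the 6 largest classes, osteoblast-like cells (341 in Drug-NIHL and 551 in NIHL) held high ratios of hypoxia members. Of 15 members counted, 6 were higher in Drug-NIHL (10.8% of genes) and 1 lower (19.6% of genes), and the median log2 ratio was 0.27 over the members and -0.05 over all genes. Adm had 154 CPM in Drug-NIHL and 41.1 CPM in NIHL, a ratio of 3.74 (2.74 to 5.16), on 132 UMIs in Drug-NIHL and 60 in NIHL. Angptl4 had 76.9 CPM in Drug-NIHL and 28.1 CPM in NIHL, a ratio of 2.74 (1.83 to 4.15). Pgk1 had 104 CPM in Drug-NIHL and 56.9 CPM in NIHL, a ratio of 1.82, and Hk2 78.0 CPM in Drug-NIHL and 50.0 CPM in NIHL, a ratio of 1.56. Gapdh (609 CPM in Drug-NIHL and 439 CPM in NIHL) and Hif1a (169 CPM in Drug-NIHL and 127 CPM in NIHL) were also higher, and Ndrg1 was lower, at 172 CPM in Drug-NIHL and 250 CPM in NIHL.

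A finer clustering, added after these values were seen, split the osteoblast-like cells into 3 sub-clusters of unlike identity. Sub-cluster 49, with 111 Drug-NIHL cells and 227 NIHL cells, was rich in the bone matrix gene Bglap, at 47170 CPM in Drug-NIHL and 33910 CPM in NIHL. Sub-cluster 43, with 153 Drug-NIHL cells and 254 NIHL cells, held only 32.8 CPM of Bglap in Drug-NIHL and 75.3 CPM in NIHL, was named fibroblast-like at that resolution, and held the larger differences. There Adm had 246 CPM in Drug-NIHL and 82.1 CPM in NIHL, Angptl4 109 CPM in Drug-NIHL and 20.5 CPM in NIHL, Pgk1 144 CPM in Drug-NIHL and 70.1 CPM in NIHL, and Hif1a 234 CPM in Drug-NIHL and 108 CPM in NIHL. Ldha, which had not been called in the whole class, had 345 CPM there in Drug-NIHL and 207 CPM in NIHL, a ratio of 1.67 (1.31 to 2.12). In sub-cluster 49, Adm had 34.6 CPM in Drug-NIHL and 15.0 CPM in NIHL, a ratio of 2.31 (0.895 to 5.84) on 10 and 12 UMIs in Drug-NIHL and NIHL. Angptl4 there had 27.7 CPM in Drug-NIHL and 34.9 CPM in NIHL, Pgk1 41.5 CPM in Drug-NIHL and 43.6 CPM in NIHL, and Hif1a 48.5 CPM in Drug-NIHL and 131 CPM in NIHL. The bone marker Ibsp also differed within sub-cluster 43, with 43.1 CPM in Drug-NIHL and 402 CPM in NIHL; its part in the differences was not tested. Sub-cluster 25, with 77 Drug-NIHL cells and 70 NIHL cells, had too few UMIs to compare: Adm rested on 2 UMIs in Drug-NIHL and 0 in NIHL, Angptl4 on 5 in Drug-NIHL and 1 in NIHL, and Pgk1 on 7 in each.

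**Figure D5:**
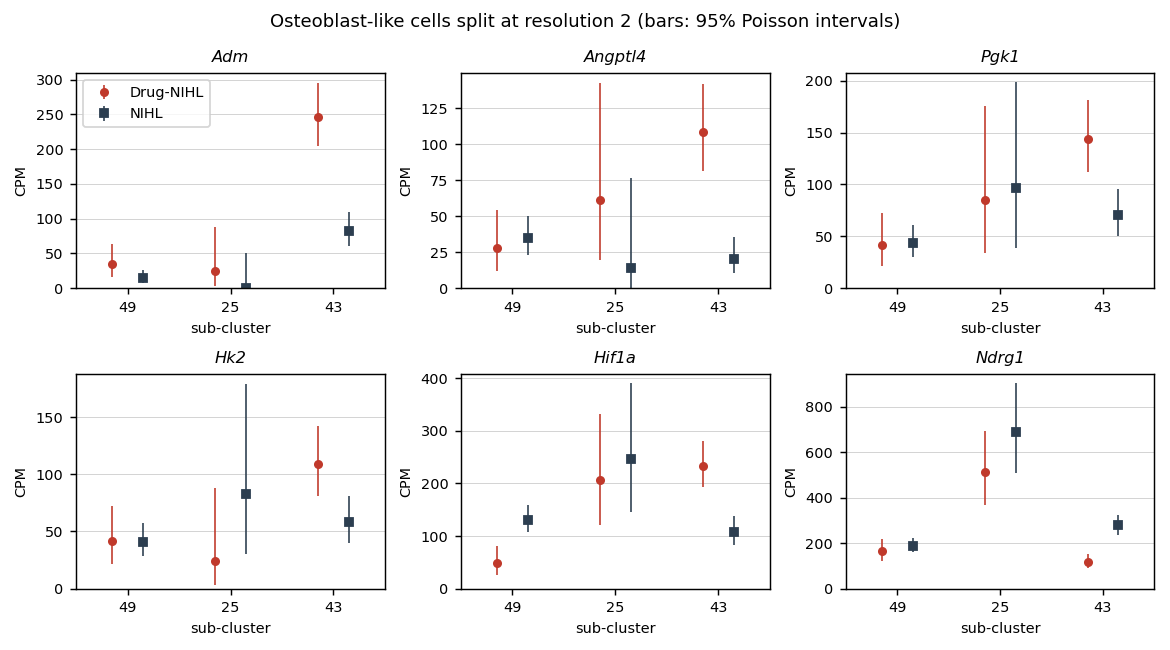
CPM (y axis) of 6 members in the 3 sub-clusters (x axis) of the osteoblast-like cells, Drug-NIHL as red circles left of NIHL as dark squares, with exact Poisson 95% intervals. Adm, Angptl4, Pgk1, Hk2 and Hif1a stand higher in Drug-NIHL in sub-cluster 43, at 246 against 82.1 CPM for Adm, and Ndrg1 stands lower there.

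Among blood-derived cells, neutrophil-like cells (252 in Drug-NIHL and 117 in NIHL) differed between the libraries throughout: 36.4% of all genes counted were higher in Drug-NIHL and 29.5% lower, so 3 of 10 members higher and 4 lower is near the background. The lactate exporter Slc16a3 had 144 CPM in Drug-NIHL and 547 CPM in NIHL, a ratio of 0.264 (0.193 to 0.358). Aldoa had 388 CPM in Drug-NIHL and 570 CPM in NIHL, and Pkm 357 CPM in Drug-NIHL and 535 CPM in NIHL. Ldhb had 301 CPM in Drug-NIHL and 131 CPM in NIHL, where it rested on 23 UMIs. In cells with at least 500 genes the ratio of Slc16a3 was 0.489, on 160 Drug-NIHL and 36 NIHL cells. With at least 1000 genes it was 0.844, on 63 Drug-NIHL and only 7 NIHL cells. Both filters left fewer NIHL cells than the 100 required of a unit. A lower median depth in NIHL neutrophil-like cells (1719 UMIs in Drug-NIHL and 1136 in NIHL) stood beside these values, and its part in them was not tested. T or NK cell-like cells had 2 of 11 members higher (11.6% of genes) and 1 lower (16.6% of genes), among them Gpi1 at 212 CPM in Drug-NIHL and 344 CPM in NIHL. Erythroid-like cells had 2 of 7 higher (9.24% of genes) and 2 lower (22.2% of genes), with Ldha at 74.3 CPM in Drug-NIHL and 114 CPM in NIHL.

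In the stria, where glycolytic transcripts were most abundant among the 16 named classes compared, the libraries were close. Intermediate cell-like cells had 0 of 19 members higher (7.94% of genes) and 1 lower (9.12% of genes), Pfkl at 120 CPM in Drug-NIHL and 151 CPM in NIHL. Marginal cell-like cells had 1 of 16 higher (7.77% of genes), Pfkfb3 at 239 CPM in Drug-NIHL and 185 CPM in NIHL, and 2 lower (11.6% of genes), Pfkl and Tpi1. In these cells the interval of the Pfkfb3 ratio reached below 1. Pfkl had 168 CPM there in Drug-NIHL and 242 CPM in NIHL, a ratio of 0.693 (0.523 to 0.917), and Tpi1 371 CPM in Drug-NIHL and 468 CPM in NIHL. Pfkl was thus lower in Drug-NIHL in both stria-like classes, with intervals that reached up to 0.987 and 0.917.

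Hair cell-like cells (163 in Drug-NIHL and 101 in NIHL) had 0 of 8 members higher (12.7% of genes) and 3 lower (17.5% of genes). Hif1a had 249 CPM in Drug-NIHL and 389 CPM in NIHL, a ratio of 0.641 (0.483 to 0.846), and Aldoc had 105 CPM in Drug-NIHL and 199 CPM in NIHL. Ndrg1 had 127 CPM in Drug-NIHL and 187 CPM in NIHL, and 21.3% of its NIHL UMIs lay in 1 cell. Oligodendrocyte-like cells had 1 of 11 higher (8.70% of genes) and 3 lower (26.1% of genes), with Gapdh at 771 CPM in Drug-NIHL and 1236 CPM in NIHL and Ldhb at 418 CPM in Drug-NIHL and 589 CPM in NIHL. Mucosal epithelium-like cells had 4 of 15 higher (24.5% of genes) and 3 lower (17.6% of genes). In them Ldha had 401 CPM in Drug-NIHL and 281 CPM in NIHL, and Ldhb had 151 CPM in Drug-NIHL and 261 CPM in NIHL, with 26.4% of its NIHL UMIs in 1 cell; with predicted doublets kept, the ratio was 0.975. Vascular smooth muscle-like cells had 3 of 12 higher (9.45% of genes) and 0 lower (8.94% of genes), Pfkp, Pgk1 and Hif1a, of which Pfkp had 91.6 CPM in Drug-NIHL and 61.6 CPM in NIHL.

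Cluster 21, the richest in glycolytic transcripts, with a median of 9812 UMIs in Drug-NIHL and 12818 in NIHL, had 2 of 21 members higher (9.53% of genes) and 1 lower (6.57% of genes). Ldha had 35.9 CPM in Drug-NIHL and 16.9 CPM in NIHL, a ratio of 2.12 (1.62 to 2.78), against 2293 CPM of Ldhb in Drug-NIHL and 2155 CPM in NIHL. Pfkfb3 had 17.1 CPM in Drug-NIHL and 9.85 CPM in NIHL, and Eno1 had 139 CPM in Drug-NIHL and 175 CPM in NIHL. Ldha was lower in Drug-NIHL in cluster 25, with 48.9 CPM in Drug-NIHL and 79.2 CPM in NIHL, in cluster 28, with 151 and 207 CPM in Drug-NIHL and NIHL, and in cluster 9, with 111 and 147 CPM in Drug-NIHL and NIHL. Cluster 25 had 0 of 17 members higher (6.84% of genes) and 2 lower (11.2% of genes), cluster 28 had 1 of 9 higher (6.84% of genes) and 3 lower (14.9% of genes), and cluster 9 had 2 of 15 higher (6.44% of genes) and 1 lower (10.9% of genes). Cluster 0 had 2 of 11 higher (14.3% of genes) and 0 lower (8.86% of genes), cluster 4 had 0 of 11 higher (8.98% of genes) and 3 lower (11.4% of genes), and cluster 8 had 2 of 12 higher (12.0% of genes) and 1 lower (13.1% of genes).

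The wider pathway was given by 60 further genes, read against the share of all genes called in the same class. In Schwann-like cells 5 of 33 were higher (5.69% of genes) and 2 lower (10.6% of genes), among them the glucose transporter Slc2a1 at 39.1 CPM in Drug-NIHL and 25.4 CPM in NIHL, a ratio of 1.54 (1.20 to 1.97). In fibrocyte-like cells 2 of 32 were higher (9.50% of genes) and 2 lower (12.0% of genes). In endothelial-like cells 2 of 25 were higher (6.62% of genes) and 0 lower (7.54% of genes). In macrophage-like cells 2 of 14 were higher (11.2% of genes) and 3 lower (8.75% of genes), with the haem-degrading enzyme Hmox1 at 285 CPM in Drug-NIHL and 154 CPM in NIHL, a ratio of 1.85 (1.60 to 2.16). In pericyte-like cells 1 of 13 was higher (7.12% of genes) and 3 were lower (14.4% of genes), among them Ndufa4l2, a mitochondrial protein induced by hypoxia, at 1110 CPM in Drug-NIHL and 1415 CPM in NIHL, and Fam162a at 876 CPM in Drug-NIHL and 1162 CPM in NIHL. In spindle or root cell-like cells 3 of 18 were higher (7.78% of genes) and 2 lower (11.2% of genes), with the carbonic anhydrase Car12 at 54.6 CPM in Drug-NIHL and 23.0 CPM in NIHL. In osteoblast-like cells 3 of 16 were higher (10.8% of genes) and 4 lower (19.6% of genes), with the collagen crosslinking enzyme Lox at 448 CPM in Drug-NIHL and 216 CPM in NIHL, a ratio of 2.08 (1.79 to 2.42).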

How the data were processed

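Gene by cell matrices of unique molecule counts were deposited by the authors, 1 per library; they were made with Cell Ranger 5.0 and STAR on mm10 (GRCm38), per the submitters' processing notes, and hold whole numbers with no normalization. The notes also name Seurat 3.2.2. The matrices hold 39939170 UMIs in Drug-NIHL and 38380393 in NIHL. Cells with at least 300 genes, at least 500 UMIs and at most 20% mitochondrial UMIs were kept. Scrublet (in scanpy 1.11.5) scored doublets, and the top 8% of scores per library were removed (1576 Drug-NIHL and 1375 NIHL cells), because its automatic threshold moved with the random seed. Cells were clustered (3000 variable genes, 30 components, 15 neighbours, Leiden resolution 1) without the 30 members, 60 further pathway genes and mitochondrial genes. A cluster was named when at least 3 fixed markers were 2 times the level of other cells and in 10% of its cells, with a marker of that type among its 10 leading genes and no other type holding more. Raw counts were summed per unit and library. Ratios carry exact conditional binomial 95% intervals, shares exact binomial and levels exact Poisson ones, and all cover counting error only. A ratio with at least 100 UMIs in both sums together was counted. TMM factors came from edgeR 4.0.16, as an alternative scaling. The calling step was checked on simulated counts of the 6 largest classes. There at least 98.8% of genes changed 2-fold were called. Of genes left unchanged, 8.36% in fibrocyte-like to 13.0% in pericyte-like cells were called as well, from counting error alone. The members, the further genes and the markers were chosen with earlier results of these data known. All 30 members may be named. Of the further genes, at most 2 per list and direction are, those with the interval bound nearest 1 furthest from it. Each group is 1 pooled library, with no replicate.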

Additional observations from a re-analysis of the deposited data

Results flagged for a closer look

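Members are given here whose whole interval lay at or below 0.8 in at least 1 unit and at or above the inverse of 0.8 in another, so that units differed in the direction of Drug-NIHL against NIHL. The difference between units was not tested. Adm had a ratio of 3.74 in osteoblast-like cells and of 0.479 in endothelial-like cells. Of the Adm UMIs in osteoblast-like cells, 120 in Drug-NIHL and 48 in NIHL lay in sub-cluster 43, named fibroblast-like at resolution 2. The Bglap-rich sub-cluster 49 held 10 in Drug-NIHL and 12 in NIHL, a ratio of 2.31 (0.895 to 5.84). Ldhb had ratios of 1.75 in endothelial-like, 1.41 in fibrocyte-like and 2.30 in neutrophil-like cells, and of 0.578 in mucosal epithelium-like cells. Without the cell holding most Ldhb UMIs in each library, the ratio in mucosal epithelium-like cells was 0.721, and with predicted doublets kept it was 0.975. The own markers of these cells summed to 60103 CPM in Drug-NIHL and 148898 CPM in NIHL. With predicted doublets kept, the Ldhb ratio in endothelial-like cells was 1.21, and with NIHL cluster weights that in fibrocyte-like cells was 1.11.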

How the results depend on the processing

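Of 875 ratios recomputed under alternative settings, 837 stayed within the counting interval of the original ratio, 24 moved and 14 reversed. The cause was not tested. That interval can span the bound for a call, so a ratio within it need not stay called. All 84 ratios stayed within it under TMM factors, the median of gene ratios, a mitochondrial limit of 10% and without mitochondrial and haemoglobin UMIs. Apart from the mitochondrial limit, these settings only rescale all ratios of a class by 1 shared factor. The largest such shift was 0.119 log2, in oligodendrocyte-like cells, so they could move ratios little. Settings that changed the cells moved more: 7 of 84 moved and 7 reversed with at least 1000 genes. At resolution 2, 4 of 61 moved and 5 reversed. With cells of at least 1000 genes, ratios reversed for Aldoc (0.842, on 7 and 32 UMIs in Drug-NIHL and NIHL), Pfkm (0.837) and Pfkp (0.700) in Schwann-like cells, Ldha (1.08) and Ndrg1 (0.811) in pericyte-like cells, Gpi1 in neutrophil-like cells (1.06) and Hif1a in cluster 0 (0.691). The 1000-gene limit left 63 Drug-NIHL and 7 NIHL neutrophil-like cells, 27 Drug-NIHL and 39 NIHL pericyte-like cells, and 69 cluster 0 cells in each library. Ldha in neutrophil-like cells reversed with at least 500 genes (0.992, with 36 NIHL cells left) and with predicted doublets kept (0.966). In osteoblast-like cells at resolution 2, Hk2 (0.896), Pgk1 (0.864), Hif1a (0.696), Angptl4 (0.904) and Ndrg1 (1.15) reversed. The members called higher or lower, 3 in Schwann-like cells, numbered 1 with at least 1000 genes, 1 at a mitochondrial limit of 10%, 9 at a minimum of 20 UMIs and 1 at a fold of 1.5. In fibrocyte-like cells 6 became 2 with NIHL cluster weights and 3 at a fold of 1.5. In endothelial-like cells 3 became 1 with at least 1000 genes and 8 at 20 UMIs. In macrophage-like cells 4 became 2 with doublets kept, 1 at resolution 2, 11 at 20 UMIs and 1 at a fold of 1.5. In pericyte-like cells 3 became 1 with at least 500 genes, 5 with the mean of each cell's CPM, 11 at 20 UMIs and 0 at a fold of 1.5. In spindle or root cell-like cells 3 became 1 with at least 1000 genes, 1 with doublets kept, 6 at 20 UMIs and 1 at a fold of 1.5. The Ldhb share in Schwann-like cells was 94.4% in Drug-NIHL with at least 500 genes and 94.3% in NIHL with at least 1000 genes, and in endothelial-like cells with doublets kept 57.3% in Drug-NIHL and 51.7% in NIHL. Unnamed clusters were not recomputed at other resolutions or with doublets kept, and with at least 1000 genes no member of pericyte-like cells reached 100 UMIs. No paired analysis was possible because each group is 1 library.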
